A study of Mus musculus with 6 samples.

Results

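The nuclear genes of the mitochondrial respiratory chain and of ATP synthase were measured in EMT6 mouse mammary carcinoma cells in culture after prolonged exposure to an antibody against PD-L1. Members were the protein-coding genes whose symbol starts with Nduf, Sdha, Sdhb, Sdhc, Sdhd, Uqcr, Cox4, Cox5, Cox6, Cox7, Cox8, Cyc1 or Atp5. These prefixes matched 111 of the 53465 rows of the count table. Of these rows, 13 were not protein-coding and were set aside, namely 12 processed pseudogenes and the non-coding Ndufb1-ps, so that 98 genes were described. By complex, 44 belonged to complex I, 8 to complex II, 9 to complex III, 20 to complex IV and 17 to complex V. The prefixes also took in 12 assembly factors (Ndufaf and Sdhaf genes), the supercomplex factor Cox7a2l and the accessory factor Atp5s, which are counted with their complexes. Ndufa4 and Ndufa4l2 were placed in complex IV, since NDUFA4 is regarded as a subunit of that complex.

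The control cells (PVITRO) had been kept with an isotype antibody and the exposed cells (PTRVITRO) with the PD-L1 antibody, each at 0.5 μg/ml for more than 4 weeks, with 3 sequenced samples per group. The labels call the exposed cells resistant. The exposure was in culture, without a host or immune cells, and both groups are the same cell line, for which the labels name no engineered allele. The labels do not say whether the 3 samples of a group were separate cultures, and in the figure legends of the study replicates are technical unless stated otherwise. P-values therefore measure the spread between these samples only, which may be technical. Total estimated counts ran from 17757341 to 32426739 per sample. The cells had the mesenchymal and keratin transcripts of this line, with Vim between 1840 and 1972 CPM and Krt8 between 1031 and 1128 CPM, while Ptprc, which marks leukocytes, and Adgre1, of macrophages, had no count in any sample and Cd3e, of T cells, had at most 1. Cd68, which is not confined to macrophages, was between 11.3 and 13.2 CPM in every sample. Epithelial Cdh1 was at or below 0.0413 CPM, while Pdgfrb, of fibroblasts and mural cells, was between 74.2 and 83.2 CPM. CPM denotes a count relative to library size, as counts per 1000000, after upper-quartile scaling.

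The respiratory chain passes electrons from NADH (complex I) or succinate (complex II) through ubiquinone to complex III, then through cytochrome c to complex IV, which reduces oxygen. Complexes I, III and IV pump protons across the inner mitochondrial membrane, and complex V, ATP synthase, uses their return to make ATP. A few subunits of complexes I, III, IV and V are encoded by the mitochondrial genome, and all others, with the whole of complex II, are encoded in the nucleus and imported. Carcinoma cells differ widely in how much they rely on this pathway.

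No member was called between PTRVITRO and PVITRO cells. Of the 98 members, 92 had enough counts to be tested with the quasi-likelihood test of edgeR, and 0 had an adjusted p below 0.05 (Benjamini-Hochberg over all 14217 tested genes), against 0.246% of all tested genes. DESeq2 and limma-voom also called 0 members. At an unadjusted p below 0.05 there were 8 members, or 8.70%, against 11.4% of all tested genes. Of these 8, 6 were higher in PTRVITRO cells (6.52% of members against 5.26% of all genes) and 2 were lower (2.17% against 6.13%). The 3 samples of one group lay entirely above or below the 3 of the other for 15 members, or 16.3%, against 17.6% of all genes. A log2 fold change above 0 was found for 40 of 92 members, or 43.5%, against 48.5% of all genes. The differences between these shares were not tested and are not read as a property of the members.

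The size of any difference was bounded closely for most members. The median log2 fold change of the tested members was −0.0052, where that of all tested genes was −0.0040, and the median size without regard to sign was 0.049 for members and 0.071 for all genes. The 95% interval of the fold change lay within 1.5-fold in either direction for 90 of 92 members (97.8%), and for 80.0% of all tested genes. The exceptions were Ndufa4l2, with a mean of 14 counts per sample, and Ndufb4, whose own estimate is the highest among members and which shares reads with a copy, as described below. Within 1.25-fold lay 82 members (89.1%) and 62.9% of all genes. Members were more deeply counted than most genes, with a median of 64.0 CPM against 22.8 CPM for all tested genes, and counting depth narrows such intervals.

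**Figure D1:**
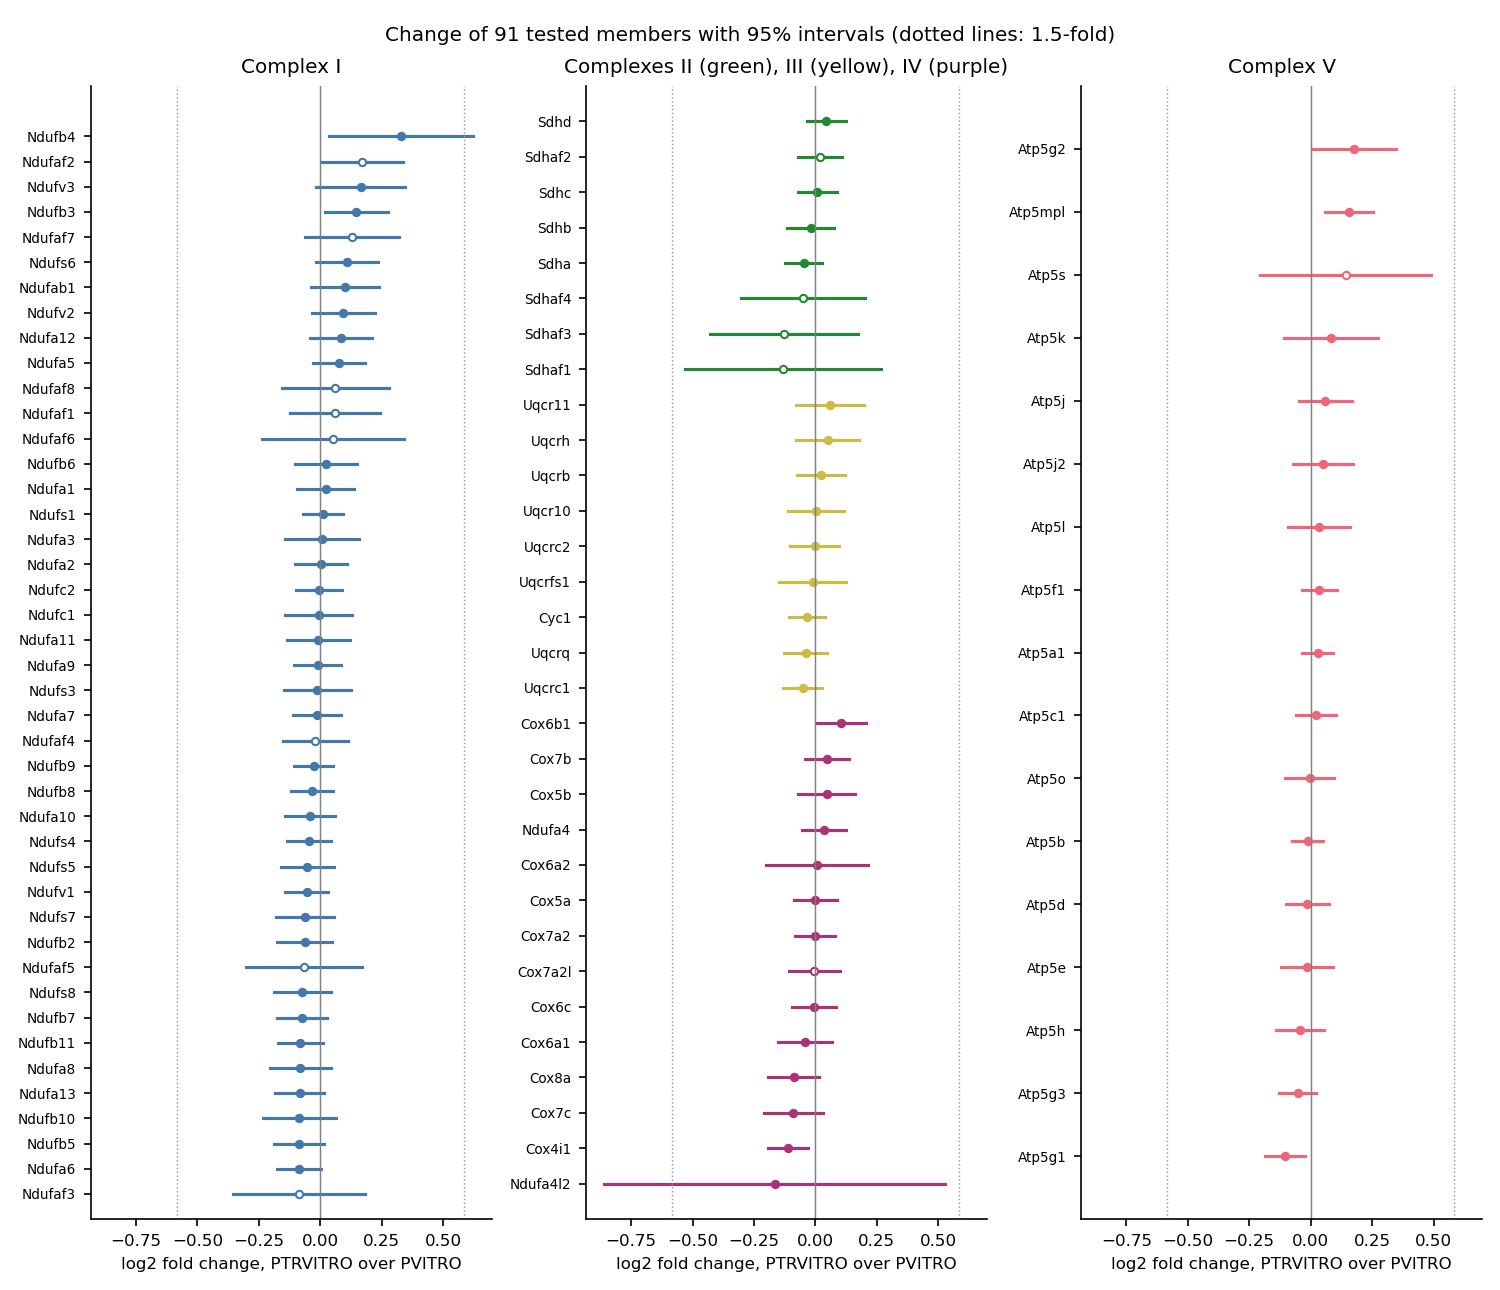
Log2 fold change (PTRVITRO over PVITRO, x axis) of 91 of the 92 tested members with 95% intervals from edgeR, one line per gene, by complex. Open circles are assembly and other accessory factors, dotted lines mark 1.5-fold, and only the intervals of Ndufb4 and Ndufa4l2 cross them.

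The summed level of each complex was nearly the same in every sample. Complex V gave the largest sum, with 4323, 4210 and 4355 CPM in PVITRO samples and 4325, 4318 and 4330 CPM in PTRVITRO samples. Complex I gave 2376, 2242 and 2323 CPM against 2306, 2283 and 2263 CPM. Complex IV gave 1755, 1642 and 1740 CPM against 1740, 1664 and 1666 CPM. In each of these sums the groups overlapped, and the lowest sample of all 6 was PVITRO replicate 2. Complex III summed to 887 ± 27.6 CPM (SD, n = 3) in PVITRO and 875 ± 8.71 CPM in PTRVITRO cells, and complex II to 563 ± 10.1 CPM and 564 ± 2.26 CPM. The sums are dominated by their most abundant members and were not tested. Together the 98 genes took between 0.945% and 0.991% of the counts of a sample. Bulk values cannot tell a difference in RNA per cell from one in the number of cells that express a gene.

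**Figure D2:**
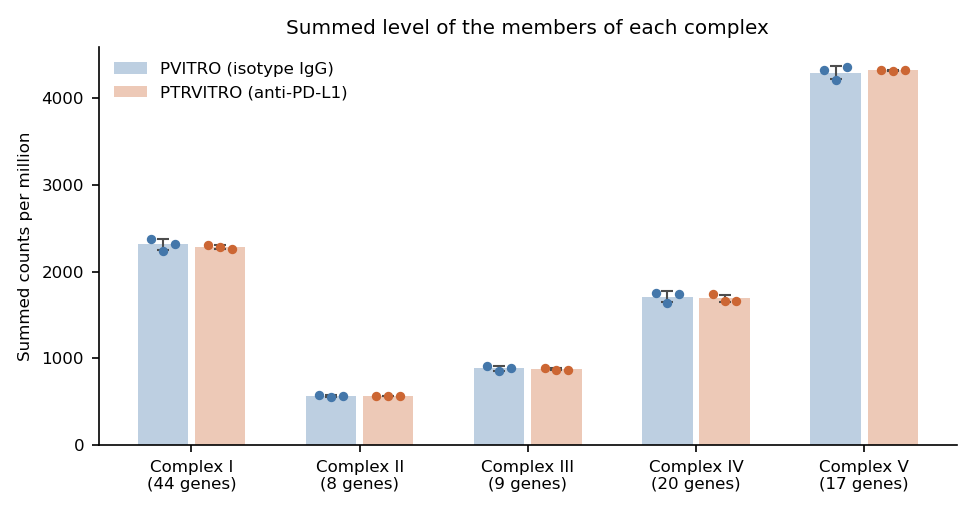
Summed CPM (y axis, from 0) of the members of each complex in the 3 PVITRO (blue) and 3 PTRVITRO (orange) samples. Bars are means, error bars are SD and points are samples, and in every complex the groups overlap.

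Within complex I, the 44 members had a median log2 fold change of −0.011, and 18 were higher and 26 lower in PTRVITRO cells. The listed nuclear core subunits, which carry the flavin, the iron-sulphur clusters and the quinone site, showed small differences in both directions. Ndufs1, the largest iron-sulphur subunit, was at 104, 104 and 108 CPM in PVITRO samples and 106, 108 and 105 CPM in PTRVITRO samples. Ndufv1, which binds NADH, was at 78.8, 74.7 and 77.8 CPM against 73.0, 75.1 and 74.4 CPM. The groups overlapped for both genes. The log2 fold change was lowest for Ndufs8, at −0.073 (SE 0.053), and highest for Ndufv2, at 0.094 (SE 0.058), while Ndufs3 was at −0.012 and Ndufs1 at 0.012. None of these core subunits had an unadjusted p below 0.05.

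Among the accessory subunits of complex I, the lowest p-values belonged to Ndufb3 and Ndufb4, both in the membrane arm. Ndufb3 was at 27.0, 24.6 and 25.8 CPM in PVITRO samples and 29.7, 27.9 and 27.8 CPM in PTRVITRO samples. All PTRVITRO samples lay above all PVITRO samples, with a log2 fold change of 0.15 (SE 0.057, edgeR unadjusted p = 0.027, adjusted p = 0.354). Ndufb4 was at 4.54, 4.52 and 3.87 CPM against 5.96, 4.82 and 5.48 CPM, and its groups also did not overlap. Its log2 fold change was 0.33 (SE 0.13, edgeR unadjusted p = 0.032, adjusted p = 0.380), the highest among members, at a mean of only 127 counts per sample. Ndufb9 and Ndufb8, the most abundant complex I transcripts per length (238 and 203 CPM per kb), had log2 fold changes of −0.027 (SE 0.036) and −0.034 (SE 0.039).

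The assembly factors, which help to build the complexes and are not part of them, were expressed at lower levels than most subunits, with a median of 8.82 CPM per kb against 91.0 CPM per kb for the 78 tested subunits. Ndufaf2, a chaperone of complex I, was at 12.2, 14.02 and 14.3 CPM in PVITRO samples and 15.2, 15.1 and 15.4 CPM in PTRVITRO samples. The groups did not overlap, and the log2 fold change was 0.17 (SE 0.076, edgeR unadjusted p = 0.044, adjusted p = 0.424). The other 11 assembly factors among the members had unadjusted p-values above 0.05, and of all 12, 6 were higher and 6 lower in PTRVITRO cells.

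Complex II, which also belongs to the citric acid cycle, had 8 members with a median log2 fold change of −0.034, and none had an unadjusted p below 0.05. Sdha, the flavoprotein that oxidises succinate, was at 132, 132 and 131 CPM in PVITRO samples and 127, 128 and 127 CPM in PTRVITRO samples. These groups did not overlap, yet the difference was small, with a log2 fold change of −0.048 (SE 0.034, edgeR unadjusted p = 0.188). Sdhb, the iron-sulphur subunit, was at −0.020 (SE 0.044) and the membrane anchor Sdhd at 0.045 (SE 0.037) on the log2 fold change scale. The assembly factor Sdhaf3, at 4.52 to 6.42 CPM, had a log2 fold change of −0.13 with a wider interval, from −0.43 to 0.17. Per length, Sdhd (141 CPM per kb) and Sdhb (75.1 CPM per kb) were the most abundant members of this complex.

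Complex III had 9 members, all tested, with a median log2 fold change of −0.0028, and none had an unadjusted p below 0.05. Uqcrc1, a core protein of the matrix side, was at 176, 169 and 167 CPM in PVITRO samples and 166, 164 and 163 CPM in PTRVITRO samples. Its groups did not overlap, with a log2 fold change of −0.051 (SE 0.036, edgeR unadjusted p = 0.182). The electron-carrying subunits were Cyc1, cytochrome c1, at −0.033 (SE 0.034), and Uqcrfs1, the Rieske iron-sulphur protein, at −0.011 (SE 0.062). Uqcrq, a small subunit, was the most abundant per length with its shorter principal transcript of 405 bases (347 CPM per kb) but not with the longer one (92.4 CPM per kb), and its log2 fold change was −0.039 (SE 0.039).

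Complex IV held 2 of the 8 members with an unadjusted p below 0.05, in opposite directions. Cox4i1, the ubiquitous form of the subunit COX4 and the largest nuclear-encoded one, was at 252, 236 and 252 CPM in PVITRO samples and 230, 228 and 227 CPM in PTRVITRO samples. Every PTRVITRO sample lay below every PVITRO sample, with a log2 fold change of −0.11 (95% interval −0.19 to −0.031, edgeR unadjusted p = 0.011, adjusted p = 0.272). Its exons overlap Emc8 on the opposite strand, which had a mean of 992 counts against 6170 for Cox4i1. Emc8 was also lower in PTRVITRO cells, with a log2 fold change of −0.13 (edgeR unadjusted p = 0.017, adjusted p = 0.305). Whether reads of Emc8 contribute to Cox4i1 was not tested. Cox6b1, which faces the intermembrane space, was at 86.0, 82.1 and 91.1 CPM against 95.1, 91.3 and 91.6 CPM. These groups were separated only narrowly, between 91.1 and 91.3 CPM, with a log2 fold change of 0.10 (SE 0.046, edgeR unadjusted p = 0.046, adjusted p = 0.428). Cox5a, at the matrix face, had a log2 fold change of −0.00078 (SE 0.040) and Cox8a, a single-span subunit, at −0.089 (SE 0.047) on the log2 fold change scale. Ndufa4, the most abundant per length in this complex with its shorter principal transcript (356 CPM per kb) but below Cox8a, Cox4i1 and Cox5a with the longer one (264 CPM per kb), was at 0.034 (SE 0.041).

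Complex V had the lowest p-value among the members. Atp5mpl, a small membrane subunit (6.8PL), was at 45.6, 42.4 and 43.6 CPM in PVITRO samples and 48.8, 48.5 and 49.4 CPM in PTRVITRO samples. Every PTRVITRO sample was higher, with a log2 fold change of 0.16 (95% interval 0.060 to 0.25, edgeR unadjusted p = 0.0046, adjusted p = 0.206). The subunits of the catalytic head were close to 0, with Atp5a1 (alpha) at 0.028 (SE 0.029) and Atp5b (beta) at −0.013 (SE 0.028) on the log2 fold change scale. Atp5b was by far the most abundant member, at 831 CPM per kb, and lay between 1558 and 1617 CPM in all 6 samples. Over the 17 members of complex V the median log2 fold change was 0.028, with 10 higher and 7 lower. Without PVITRO replicate 2 this median was −0.018.

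The c-ring, the rotor of ATP synthase, is built from identical copies of a small protein encoded by the paralogs Atp5g1, Atp5g2 and Atp5g3, which differ in their import sequences. Atp5g1 was at 107, 106 and 109 CPM in PVITRO samples and 101, 98.5 and 99.8 CPM in PTRVITRO samples. Its groups did not overlap, with a log2 fold change of −0.10 (SE 0.036, edgeR unadjusted p = 0.015, adjusted p = 0.298). Atp5g3 was at 202, 200 and 200 CPM against 198, 191 and 191 CPM, also without overlap, with a log2 fold change of −0.053 (SE 0.034, edgeR unadjusted p = 0.145). Atp5g2 went the other way, at 129, 139 and 140 CPM against 169, 132 and 160 CPM. Its groups overlapped, with a log2 fold change of 0.18 (SE 0.078, edgeR unadjusted p = 0.046, adjusted p = 0.427), which became 0.097 without PTRVITRO replicate 1 and 0.28 without PTRVITRO replicate 2. As shown next, the counts of Atp5g2 and Atp5g1 are shared with retrocopies.

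Many of these short, highly expressed genes have processed copies elsewhere in the genome, made from spliced RNA and therefore lacking introns. Of the 98 members, 32 shared a stretch of at least 150 bases at 95% identity or more with another annotated gene. For 23 of them, copies in the same orientation outside the gene itself (43 in all) could be summed with the member. The member kept at least 95% of the joint counts in 8 of these 23 and under 50% in 4, by the mean over all 6 samples, namely Ndufb4, Ndufab1, Atp5g2 and Atp5l. Ndufab1 was near this bound, at 45.7% to 52.3% in single samples.

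Ndufb4 (chr16:37647170-37654453, minus strand, GRCm38) and the processed pseudogene Ndufb4c (chr15:73809507-73809896, minus strand) have the same bases over all 390 bases of the coding sequence, so that a read lying wholly within it cannot be assigned to either by sequence. The first 150 coding bases, identical in both, are shown because they carry this ambiguity.
Ndufb4 and Ndufb4c: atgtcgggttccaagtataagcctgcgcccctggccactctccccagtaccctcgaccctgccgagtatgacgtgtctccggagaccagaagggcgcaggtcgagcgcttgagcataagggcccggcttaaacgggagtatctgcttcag
Ndufb4 was given 106, 135 and 93.6 counts in PVITRO samples and 193, 136 and 97.7 counts in PTRVITRO samples. Ndufb4c was given 814, 947 and 767 counts against 1076, 940 and 571 counts. The member held 11.6% ± 0.831 (SD, n = 3) of the joint counts in PVITRO and 14.2% ± 1.32 in PTRVITRO cells. The joint level was 37.0 ± 2.05 CPM in PVITRO and 38.2 ± 0.825 CPM in PTRVITRO cells. When both were summed before the fit, the log2 fold change was 0.048 (edgeR unadjusted p = 0.380) in place of 0.33.

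Atp5g2 (chr15:102662864-102672352, minus strand, GRCm38) shares all 441 coding bases with Gm10175 (chr7:23946646-23947290, minus strand), an annotated transcribed processed pseudogene. Gm10175 was given 6169, 7115 and 5838 counts in PVITRO samples and 7639, 6506 and 3931 counts in PTRVITRO samples. Atp5g2 was given 3008, 4155 and 3389 counts against 5484, 3734 and 2845 counts, fewer than its copy in every sample. The member held 35.5% ± 2.32 (SD, n = 3) of the joint counts in PVITRO and 40.1% ± 3.13 in PTRVITRO cells. The joint level was 384 ± 8.53 CPM against 382 ± 21.7 CPM. The log2 fold change of the sum was −0.0056 (edgeR unadjusted p = 0.898), where Atp5g2 alone gave 0.18 and Gm10175 alone −0.11.

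Ndufab1, the mitochondrial acyl carrier protein, differs from the processed pseudogene Gm4459 (chr7:139659688-139660155, minus strand) at 1 of 468 aligned coding bases. The first 150 coding bases of Ndufab1 (chr7:122085403-122101886, minus strand) are given with those of the copy, with the differing base in capitals, since it is the only aligned coding base that separates them.
Ndufab1: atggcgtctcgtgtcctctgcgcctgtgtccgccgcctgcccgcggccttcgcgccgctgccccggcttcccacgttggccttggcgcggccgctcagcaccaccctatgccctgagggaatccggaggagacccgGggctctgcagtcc
Gm4459: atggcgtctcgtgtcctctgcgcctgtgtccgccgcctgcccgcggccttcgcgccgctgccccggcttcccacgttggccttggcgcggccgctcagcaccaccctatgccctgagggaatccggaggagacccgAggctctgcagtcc
Ndufab1 held 47.3% ± 1.49 (SD, n = 3) of the joint counts with Gm4459 and Ndufab1-ps in PVITRO and 50.6% ± 1.74 in PTRVITRO cells. Its own log2 fold change was 0.10 and that of the sum −0.0020, with a joint level of 85.4 ± 4.06 CPM against 85.3 ± 1.66 CPM. Atp5l, the g subunit of ATP synthase, held 44.5% ± 0.764 and 45.0% ± 2.75 of its joint counts, mostly shared with Gm10221, and its log2 fold change was 0.035 alone and 0.024 summed.

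Cox5b and Atp5g1 also have copies that differ at few coding bases. Cox5b (chr1:36691449-36693681, plus strand) differs at 3 of 390 coding bases from Gm11273 (chr13:21501029-21501418, minus strand), an intronless gene annotated as protein-coding. Coding bases 94 to 243 hold all 3 differences, in capitals.
Cox5b: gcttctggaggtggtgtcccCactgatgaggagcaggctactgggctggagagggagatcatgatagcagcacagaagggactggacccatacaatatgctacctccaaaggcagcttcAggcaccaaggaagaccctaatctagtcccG
Gm11273: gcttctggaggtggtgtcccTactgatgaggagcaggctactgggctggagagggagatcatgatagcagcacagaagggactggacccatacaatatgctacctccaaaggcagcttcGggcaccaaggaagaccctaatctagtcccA
Gm11273 was given 327, 411 and 366 counts in PVITRO samples and 396, 378 and 212 counts in PTRVITRO samples, where Cox5b had a mean of 3015 counts. The log2 fold change of Cox5b was 0.045 alone and 0.020 when summed. Atp5g1 differs from Gm10039 on chromosome 11 at 1 of 411 coding bases. Atp5g1 held between 66.9% and 69.7% of the joint counts, and the log2 fold change of the sum was −0.087 (edgeR unadjusted p = 0.036). After summing, 6 of the 8 members kept an unadjusted p below 0.05, and Ndufb4 and Atp5g2 did not.

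**Figure D3:**
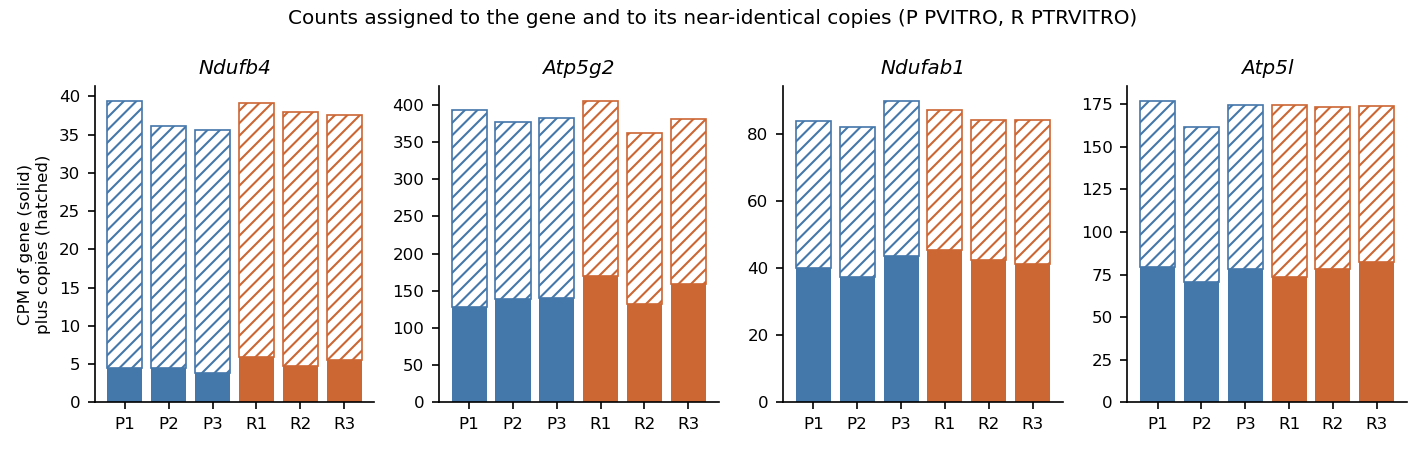
CPM (y axis, from 0) given to each of 4 members (solid) and to their near-identical copies (hatched) in every sample. P1 to P3 are PVITRO and R1 to R3 are PTRVITRO replicates, and the copies hold more than the member for Ndufb4, Atp5g2 and Atp5l in every sample and for Ndufab1 in 4 of 6 samples.

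Several subunits of complex IV exist as paralogs with tissue-restricted partners, and EMT6 cells used the ubiquitous form in both groups. Cox4i1 made up 99.98% of the COX4 family level per length, and its partner Cox4i2, known from lung and hypoxia, had between 0 and 3 counts. Cox7a1, the heart and muscle form, had 2 to 9 counts, where Cox7a2 had 2396 to 4360. Cox6b2, the testis form, had 0 counts in 4 samples, 5 in PTRVITRO replicate 1 and 1 in PTRVITRO replicate 3. Cox8b, Cox8c and Cox7b2 had 0 counts in all 6 samples, and a count of 0 allows up to 0.0925 CPM in the deepest and 0.168 CPM in the shallowest sample (3 counts, counting error only). These 6 genes were the members not tested.

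The exception was Cox6a2, the heart and muscle form of COX6A. It had 190, 235 and 182 counts in PVITRO samples and 272, 215 and 134 counts in PTRVITRO samples. Per length it made up 4.94% of the COX6A family in PVITRO and 5.08% in PTRVITRO cells, the rest being Cox6a1. Its log2 fold change was 0.0055 (SE 0.095). The muscle markers Ckm and Actn3 were at or below 0.112 CPM in every sample. Exons of Cox6a2 overlap Itgad on the opposite strand, and that gene had a mean of 2.67 counts. Ndufa4l2, the hypoxia-inducible partner of Ndufa4, was tested at 7 to 19 counts per sample, with a log2 fold change of −0.17 and an interval from −0.86 to 0.53. With a sample left out it ran from −0.048 (without PVITRO replicate 3) to −0.32 (without PTRVITRO replicate 1). Its exons overlap Shmt2 on the opposite strand, which had a mean of 13784 counts. Whether reads of that gene contribute to Ndufa4l2 was not tested. In all, 35 members have exons that overlap another gene, 32 of them on the opposite strand.

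**Figure D4:**
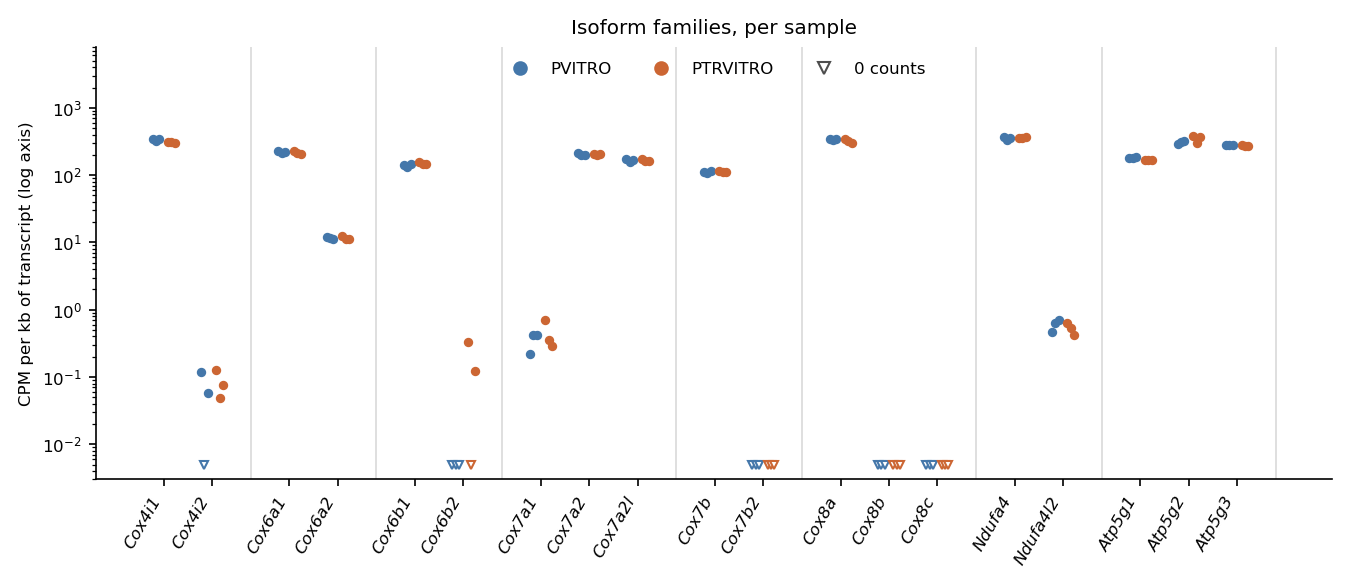
CPM per kb of transcript (y axis, log scale) of the members of each isoform family in the PVITRO (blue) and PTRVITRO (orange) samples, with open triangles for 0 counts. Cox6a2 is the only tissue-restricted complex IV form above 1 CPM per kb, and the Atp5g genes are all expressed.

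The windows upstream of the start sites were described by their letters only. Of the 98 members, 78 matched the RefSeq promoter table (GRCm38.p6), with 83 start sites, and the 250 bases before each were read. Their median CpG count was 14, against 6 over all 32851 start sites of the table, which also holds non-coding genes. The core CGCATGCG of NRF1, a regulator of nuclear genes for mitochondrial proteins, which reads the same on both strands, was found in 9.64% of member windows and 1.55% of all. The ETS core CCGGAAG, read by GABPA, was found on either strand in 19.3% of member windows and 6.91% of all. The YY1 core AAGATGG was found in 1.20% and 4.49%, and TATAAA in 8.43% and 12.4%, both on either strand. These shares rest on 8, 16, 1 and 7 of the 83 member windows, and their differences from all windows were not tested. None of the 4 motifs was found in 57 member windows, or 68.7%, and in 76.3% of all. The ETS and YY1 letters can overlap by the bases AAG, and a match is a description of the sequence only. Below are the windows of Cox6a1 (chr5:115348959-115349208, minus strand) and Cox6b1 (chr7:30626115-30626364, minus strand), both expressed, and of the pair Cox8a (chr19:7217617-7217866, minus strand) and Cox8b (chr7:140900447-140900696, minus strand), of which the first had 2954 to 6079 counts and the second none. Capitals mark the NRF1 core (CGCATGCG) and the reverse complement of the ETS core (CTTCCGG), in windows printed in the direction of the gene.
Cox6a1: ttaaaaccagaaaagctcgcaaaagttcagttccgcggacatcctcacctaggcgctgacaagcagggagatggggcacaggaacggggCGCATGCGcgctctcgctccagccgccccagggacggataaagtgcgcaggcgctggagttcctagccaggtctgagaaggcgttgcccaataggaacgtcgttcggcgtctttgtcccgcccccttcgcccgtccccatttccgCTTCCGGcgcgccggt
Cox6b1: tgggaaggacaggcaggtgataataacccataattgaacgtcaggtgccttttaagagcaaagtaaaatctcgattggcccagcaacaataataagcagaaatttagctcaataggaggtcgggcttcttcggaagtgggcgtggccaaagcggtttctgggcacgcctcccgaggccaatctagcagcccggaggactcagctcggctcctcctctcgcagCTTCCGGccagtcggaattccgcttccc
Cox8a: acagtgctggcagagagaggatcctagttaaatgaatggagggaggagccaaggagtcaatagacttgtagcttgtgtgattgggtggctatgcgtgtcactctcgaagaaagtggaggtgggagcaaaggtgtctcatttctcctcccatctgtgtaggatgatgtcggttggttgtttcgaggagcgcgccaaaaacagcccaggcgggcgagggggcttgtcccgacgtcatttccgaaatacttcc
Cox8b: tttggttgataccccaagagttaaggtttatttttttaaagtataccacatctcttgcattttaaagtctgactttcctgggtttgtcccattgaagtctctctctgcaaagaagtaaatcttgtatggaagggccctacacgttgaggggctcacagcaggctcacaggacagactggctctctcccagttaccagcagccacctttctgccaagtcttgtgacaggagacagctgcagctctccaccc
Cox6a1 holds both motifs and 26 CpG, Cox6b1 holds the ETS core and 14 CpG, and neither Cox8 window holds any of the 4 motifs. Cox8a has 11 CpG and Cox8b has 1. The pair of Cox7b, with 1982 to 3764 counts, and Cox7b2, with none, went the other way, with 5 CpG and no motif in the first and 9 CpG and TATAAA in the second. The expressed Cox7a2 and Ndufa4 also hold none of the 4 motifs. The windows shown are therefore examples and do not set expressed members apart from silent ones.

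The genes that act with these complexes were described from lists. No gene was called among 39 tested assembly factors outside the prefixes, 14 biogenesis regulators, 16 genes of electron carriers and ubiquinone synthesis, or 13 citric acid cycle genes. At an unadjusted p below 0.05, where all genes stood at 11.4%, were 2 of the 39 assembly factors (Cox10 at −0.14, which makes the haem of complex IV, and Cox14 at −0.11 on the log2 fold change scale), 1 of the 16 carrier and ubiquinone genes (Coq3, −0.16), 1 of the 13 citric acid cycle genes (Dld, 0.11) and 0 of the 14 regulators. Each of these shares was below that of all genes, and they are not read as a result about the lists. Among the regulators, Nrf1 was at 42.7, 42.7 and 41.3 CPM in PVITRO samples and 45.2, 43.8 and 43.3 CPM in PTRVITRO samples, and its log2 fold change came to 0.064 (adjusted p = 0.624). Tfam, which packages and transcribes mitochondrial DNA, was at 64.5, 64.4 and 66.8 CPM against 69.0, 68.4 and 69.4 CPM. Both genes were higher in all PTRVITRO samples, and Tfam had a log2 fold change of 0.080 (edgeR unadjusted p = 0.064, adjusted p = 0.470). Esrra was at −0.080 (adjusted p = 0.690) and Ppargc1b, under 1 CPM in every sample, at −0.69 (adjusted p = 0.610), which became −1.27 without PTRVITRO replicate 1 and −0.39 without PTRVITRO replicate 3. Ppargc1a, a coactivator of this programme, had no count in any sample.

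Of the 13 protein genes of the mitochondrial genome, which encode the partners of these subunits, 1 was called (0.246% over all genes), 3 were lower in PTRVITRO cells at an unadjusted p below 0.05 (6.13% over all genes) and none higher, and 12 had a log2 fold change below 0 (51.5% over all genes), with a median of −0.10. The difference of these counts from all genes was not tested, and 9 of the 13 genes have a near-identical nuclear copy with which they can share reads. Of these 9, mt-Co2 and mt-Atp6 held at most 2.99% and mt-Nd3 at most 38.3% of the joint counts in any sample, while mt-Nd2, mt-Nd4 and mt-Nd5 held over 99% in every sample. The mean joint level was lower in PTRVITRO cells for 8 of the 9 genes, and the groups overlapped for all 9. The called gene was mt-Co3, with 306, 239 and 296 CPM in PVITRO samples and 89.7, 127 and 81.6 CPM in PTRVITRO samples (log2 fold change −1.49, SE 0.14, adjusted p = 0.0037 in the edgeR fit), and the others were mt-Nd4l (−0.31, adjusted p = 0.0963) and mt-Nd2 (−0.19, adjusted p = 0.432). However, mt-Co3 shares all 783 aligned bases with the pseudogene Gm28437 on chromosome 1, and held 8.15% to 9.43% of the joint counts in PVITRO samples and at most 4.29% in PTRVITRO samples. Reads of these copies could not be told apart by sequence, and the joint level was not tested. The joint level was 3247, 2936 and 3329 CPM in PVITRO samples and 3450, 2965 and 2858 CPM in PTRVITRO samples, so that these groups overlapped. The joint level of mt-Nd4l with Gm10222 also overlapped, at 143, 151 and 163 CPM against 149, 127 and 127 CPM.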

How the data were processed

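Polyadenylated RNA from 6 samples was sequenced as stranded libraries. The deposited values are gene-level estimated counts (RSEM expected counts), which the authors made with FastQC 0.11.5, STAR 2.6.0a and RSEM 1.3.1 on GRCm38 (GENCODE M16); whether RSEM used the strand is not given in the sources used here. Between 12.5% and 13.8% of values per sample were not whole. Reads that fit a gene and its copy equally are split by RSEM, which affects short genes with retrocopies.

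Gene symbols, types and transcripts came from GENCODE M21 of the same build, which held 53360 of 53465 IDs (17 members with another version). Counts were rounded, filtered (filterByExpr, minimum count 10, minimum total 15), scaled by the upper quartile and compared with edgeR 4.0.16 (glmQLFTest, R 4.3.3) in a model of group alone. Calls are at an adjusted p below 0.05 over all tested genes. Standard errors and 95% intervals come from that fit. Levels per length used the shortest principal transcript. Copies were found with BLAST+ (at least 95% identity over 150 bases) and summed where they were in sense and outside the member. The same search was run for the mitochondrial genes after their values were seen, and their joint levels were not tested. The fit was tested on simulated data. Alternatives were TMM, no scaling factor, DESeq2 1.42.0, limma-voom (limma 3.58.1), other filters, a replicate block, a GC and length correction, summed copies and leaving out each sample.

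The members and lists were chosen with earlier results of these data known. Genes named are all called members, the 3 lowest p-values and 2 highest levels per length of each complex, the listed core subunits, the isoform families, called list genes and Ppargc1a, Ppargc1b, Nrf1, Tfam and Esrra. Other genes (unadjusted p below 0.05 in a list, and the members with copies) were chosen after their values were seen. No sample or column was left out. The single values of 1 member are not reported here.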

Additional observations from a re-analysis of the deposited data

How the results depend on the processing

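The number of members called was 0 in the main analysis and under every alternative except the fit with no filter on low counts, which called 1 member, Atp5g2. That gene was at 0.18 there (adjusted p = 0.019) and at −0.0056 when summed with its copies. Members at an unadjusted p below 0.05 numbered 8, and 4 with DESeq2, 6 after summing copies and 4 to 11 with each sample left out (4 without PTRVITRO replicate 1). Called list genes numbered 1, and 2 with DESeq2 (mt-Nd4l in addition), 2 with the GC and length correction (mt-Nd4l) and 4 with no filter (mt-Nd2, mt-Nd4l and mt-Atp6). Over all genes, 35 were called, and 111 with DESeq2, 400 with no filter, 54 when every sample needed 10 counts or more, 68 with the replicate block, 60 with the block and the GC and length correction, and 8 to 64 with a sample left out (8 without PTRVITRO replicate 3, 64 without PVITRO replicate 2). The cause of these shifts was not tested. To see whether the replicate numbers pair the samples, the group mean of each tested gene was subtracted from its log CPM. The remaining deviations of same-numbered samples correlated between the groups at 0.109, 0.095 and −0.056. These are correlations of deviations and not of expression levels. The numbers were not taken to pair the samples. With the replicate block, 0 members and 1 list gene were called, and 11 members had an unadjusted p below 0.05.

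The median of complex V was 0.028 and ran from −0.018 (without PVITRO replicate 2) to 0.049 with a sample left out. The medians of the other complexes moved by less than the spread between samples. With a sample left out, some of them also took either sign. These were complex I (−0.040 to 0.013), complex III (−0.042 to 0.024) and complex IV (−0.028 to 0.022).

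Values of named genes near 0 changed sign under some alternatives, the largest at 0.060. With the GC and length correction these were Atp5b at 0.0030, Cox6a1 at 0.025, Cox7a2 at 0.0074, Cyc1 at 0.034, Ndufa4 at −0.0076 and Ndufs3 at 0.0036. With the replicate block and that correction, Atp5b was at 0.0026, Cox6a1 at 0.024, Cox7a2 at 0.0070, Cyc1 at 0.034 and Ndufa4 at −0.0077. With no scaling factor, Cox5a was at 0.012, Cox7a2 at 0.011, Cox7a2l at 0.0077, Ndufs3 at 0.0007 and Uqcrfs1 at 0.0015. Cox5a was also at 0.0003 with TMM, 0.0036 with DESeq2, 0.0012 with limma-voom, 0.0006 with no filter and 0.0003 with the replicate block. Cox7a2 was at 0.0025 with DESeq2, and Cox6a2 at −0.0015 with the replicate block. With a sample left out, the ranges were −0.020 to 0.0015 for Atp5b, −0.024 to 0.034 for Cox5a, −0.050 to 0.037 for Cox6a2, −0.013 to 0.029 for Cox7a2, −0.048 to 0.031 for Cox7a2l, −0.055 to 0.060 for Ndufs3, −0.060 to 0.0041 for Sdhb and −0.084 to 0.036 for Uqcrfs1.

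Leaving out a sample also moved 6 named genes of at least 0.10 in size by over 1.5 times without a change of sign, namely Atp5g2 (0.097 to 0.28), Cox6b1 (0.068 without PVITRO replicate 2), Ndufaf2 (0.11 without PVITRO replicate 1), Ndufa4l2 (−0.32 to −0.048), Sdhaf3 (−0.20 to −0.011) and Ppargc1b (−1.27 to −0.39).

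Depth limits what can be said of Ndufa4l2 and the assembly factors with few counts, and reads shared with retrocopies limit the members named above.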
